A study of Rattus norvegicus with 40 samples.

Results

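The Egr genes encode a family of zinc finger transcription factors with 4 members, Egr1, Egr2, Egr3 and Egr4. All probe sets whose platform symbol was 1 of these names were followed, which gave 4 of the 14217 genes and 6 of the 31042 probe sets on the array. Egr1 was read by 1368321_at, Egr2 by 1387306_a_at and 1398266_a_at, Egr3 by 1369545_at, and Egr4 by 1375784_at and 1387442_at. Of the 6, 4 lay above the limit on mean signal and were among the 18625 probe sets tested. The second Egr2 and the second Egr4 probe set lay below it and are given as levels.

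The cells were isolated neonatal rat ventricular myocytes, the contracting muscle cells of newborn rat heart, and their total RNA was hybridised to 40 Affymetrix rat arrays. Ischemia was imposed in culture by coverslip hypoxia, a model in which cells under a glass coverslip are cut off from fresh medium and oxygen. The labels give an ischemia+reperfusion arm and an ischemia arm, each at 0, 10, 30, 60 and 120 min, with 4 arrays in each of the 10 groups. Each group held 2 duplicates from each of 2 cell preparations. The 0 min groups carry the label of their arm and of coverslip hypoxia like all other groups, and no untreated group is among the arrays. The labels do not say how long reperfusion lasted, which step the minutes count, the strain or age of the pups, or whether duplicates were separate cultures. The main tests rest on 2 averages per group, an average of the duplicates of each preparation. Their p-values therefore measure only the spread between these averages, part of which may be technical.

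Egr proteins are immediate early gene products. In resting cells their messenger RNA is scarce, and growth factors, stretch, calcium or oxidant stress raise it within minutes through ERK signalling to serum response factor and its partners and through CREB, without the need for new protein. The proteins bind GC-rich sites and control genes of inflammation, coagulation, matrix and growth, and they induce the corepressor Nab2, which binds Egr1, Egr2 and Egr3 and limits their activity. In heart muscle cells Egr1 is known as an early responder to hypertrophic and ischemic stimuli.

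The 250 bases upstream of the annotated start were searched for elements through which such signals can act, and bases further upstream were not searched. The stretch is shown for Egr1, the member called between the arms with all arrays. It is also shown for Egr2, called at 30 min only when an array with exchanged values was left out or arrays were taken as samples. Sequences are from RefSeq on assembly GRCr8, read 5′ to 3′ on the gene's strand, and capitals mark CArG boxes, the elements bound by serum response factor. The Egr1 stretch is chr18:26736828-26737077 on the plus strand and the Egr2 stretch is chr20:21054442-21054691 on the minus strand.
Egr1: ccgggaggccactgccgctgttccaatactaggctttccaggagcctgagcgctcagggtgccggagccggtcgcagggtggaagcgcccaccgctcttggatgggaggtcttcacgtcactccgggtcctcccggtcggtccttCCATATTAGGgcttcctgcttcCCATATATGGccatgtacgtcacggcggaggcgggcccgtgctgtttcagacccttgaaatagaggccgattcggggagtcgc
Egr2: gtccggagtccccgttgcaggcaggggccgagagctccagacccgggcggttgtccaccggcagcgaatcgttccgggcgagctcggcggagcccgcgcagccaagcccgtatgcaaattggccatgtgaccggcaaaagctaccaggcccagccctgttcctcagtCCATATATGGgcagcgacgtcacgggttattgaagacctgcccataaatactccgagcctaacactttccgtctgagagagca
The Egr1 window held 2 CArG boxes, CCATATTAGG from position -105 to -96 and CCATATATGG from -83 to -74, counted back from the start. The Egr2 window held 1, with the same letters, CCATATATGG, and at the same distance, from -83 to -74. A CArG box was present in 1.497% of 33469 rat promoter windows of the same length, and 7 windows held 2 or more. Searched on both strands, TGACG, the core of the element bound by CREB and ATF proteins, was found from -66 to -62 in both windows and also from -135 to -131 in Egr1, and it was present in 18.22% of all windows. The Egr4 window (chr4:119607818-119608067, minus strand) held no CArG box and 2 matches of TGACG, from -178 to -174 and from -110 to -106. GCGNGGGCG, a form of the site that Egr proteins themselves bind, was in none of the 3 windows and in 4.291% of all windows. No match overlapped a match of another motif. Egr3 had no entry in the promoter table.

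Arrays that stand apart bear on some values below. In replicate 1 of the 0 min ischemia group, 125 of 1158 pairs of same-gene probe sets whose levels lay more than 2 log2 units apart had values that appeared exchanged, each within 0.7 log2 units of the partner's level, and 0 pairs appeared exchanged on any other array. The Egr2 pair was among the 125. The median correlation of that array was 0.924, against 0.974 to 0.982 for the others. Probe sets without such a partner could not be checked in this way. At 120 min the heat shock gene Hspa1a had a normalised intensity of 847 on replicate 3 of ischemia+reperfusion, against 8156 to 9726 on the other arrays of that group, and 9043 on replicate 4 of ischemia, against 773 to 1156 on its other arrays. Values without these arrays are given beside the results on the members and lists where a call, a direction or a size turned on them. The 2 arrays at 120 min are named out of place by their Hspa1a level, and a mix-up of samples was not tested. Calls at 120 min without them follow that choice and are no independent test of a difference between the arms. Of the listed markers of heart muscle cells, 7 of the 7 on the array were above the limit, and so were all 8 listed for fibroblasts, 5 of 5 for smooth muscle, 7 of 7 for macrophages and 4 of 5 for endothelium. Of all 31042 probe sets 18625 passed this limit, which is no detection call. Mean intensities ran from 326 to 9610 for fibroblast markers and from 220 to 6788 for smooth muscle markers. They ran from 97.7 to 1303 for macrophage markers and from 27.9 to 972 for endothelial markers. RNA of other cell types may thus be part of the signal. Of the 3 Schwann cell markers on the array, Sox10 and Erbb3 were at 0 and S100b averaged 85.6. No tested marker passed between the arms at 30 or 60 min, when 0.532% and 5.38% of all probe sets were called.

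Egr1 was the member whose level changed with time. Its calls against 0 min came at different times in the arms. A difference between the arms in its change since 0 min passed at no time in the fit to the averages. In ischemia its level was higher at 60 and 120 min than at 0 min, with the 30 min value just short of the threshold. In ischemia+reperfusion only the difference at 120 min passed among the times tested. The arms lay furthest apart at 30 min, where ischemia+reperfusion cultures had 0.344 times the signal of ischemia cultures. In this bulk RNA fewer cells of a type and less RNA per cell cannot be told apart.

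In the ischemia+reperfusion arm the normalised intensity of Egr1 was 1909, 1829, 1490 and 1465 at 0 min and 1645, 1446, 1492 and 1008 at 10 min (replicates 1 to 4, of which 1 and 2 are preparation 1). It was 1277, 1312, 1208 and 1490 at 30 min, 1912, 2124, 2002 and 2215 at 60 min, and 3830, 4840, 3366 and 3286 at 120 min. All 4 arrays at 120 min stood above every other array of the arm, the 60 min arrays stood just above those of 0 min, and the 10 and 30 min arrays overlapped the 0 min range. In the ischemia arm Egr1 had 2446, 2234, 2378 and 1751 at 0 min and 2556, 2388, 2191 and 2042 at 10 min. It had 4645, 4342, 3786 and 2940 at 30 min, 4909, 4447, 4080 and 4078 at 60 min, and 3484, 3162, 3651 and 4021 at 120 min. Every ischemia array from 30 min on stood above every ischemia array of 0 and 10 min.

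**Figure D1:**
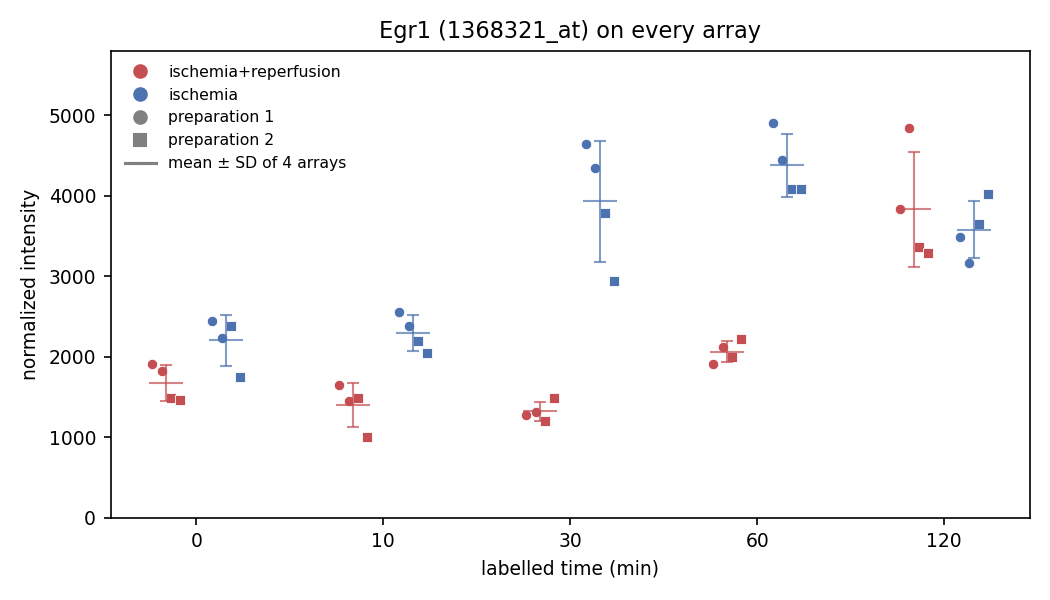
Normalised intensity of Egr1 (vertical axis, from 0) on every array by labelled time in min (horizontal axis), ischemia+reperfusion left of ischemia, with marker shape for the preparation and bars for the mean ± SD of 4 arrays. Ischemia arrays lie between 2940 and 4645 at 30 min, above the ischemia+reperfusion arrays at 1208 to 1490, and at 120 min the arms overlap.

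Ordered by mean, Egr1 was highest in ischemia at 60 min, 4379 ± 394, then in ischemia at 30 min, 3928 ± 749, in ischemia+reperfusion at 120 min, 3831 ± 715, and in ischemia at 120 min, 3580 ± 357 (SD, n = 4 arrays each). It was lower in ischemia at 10 min, 2294 ± 225, in ischemia at 0 min, 2202 ± 313, and in ischemia+reperfusion at 60 min, 2063 ± 133. The lowest means were those of ischemia+reperfusion at 0 min, 1673 ± 228, at 10 min, 1398 ± 273, and at 30 min, 1322 ± 120. The first 4 groups, with no array under 2940, were separated from the other 6, with no array over 2556, and neighbours within the first set overlapped. In the second set ischemia+reperfusion at 60 min, whose lowest array was 1912, lay just above that arm's 0 min arrays, whose highest was 1909, and the other neighbours overlapped.

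Against 0 min of the same arm, Egr1 in ischemia+reperfusion rose by 1.18 ± 0.14 on the log2 scale at 120 min (estimate ± SE, limma, adjusted p = 0.00353), 1.20 in preparation 1 and 1.16 in preparation 2. It ranked 111 from the top of all probe sets, and 3.5% of them were called higher. Without the 2 arrays out of place at 120 min the rise was 1.17 (adjusted p = 0.00158). The earlier differences in this arm did not pass, -0.27 at 10 min (adjusted p = 0.509), -0.33 at 30 min (0.309) and 0.31 at 60 min (0.223), where 0.0376%, 0.784% and 4.69% of all probe sets were called. In ischemia Egr1 rose by 0.99 ± 0.14 at 60 min (adjusted p = 0.0283), when only 0.0859% of all probe sets were called higher, and by 0.70 ± 0.14 at 120 min (adjusted p = 0.0128), when 6.45% were. The 60 min call was lost on the deposited scale (0.91, adjusted p = 0.0724) and without the preparation block (0.99, adjusted p = 0.0783). On the deposited scale, which is without normalization, the median of all probe sets was -0.17 in that comparison. At 120 min the rise without the 2 arrays out of place was 0.67 (adjusted p = 0.0105). Without the exchanged array the values were 1.02 at 60 min (adjusted p = 0.0279) and 0.73 at 120 min (0.00935). At 30 min the ischemia difference was 0.82 ± 0.14 with an adjusted p of 0.0683, and this p ran from 0.00219 to 0.141 over the alternatives, so the call at 30 min depends on the processing. Here 0.0966% of all probe sets were called. At 10 min it was 0.07 (adjusted p = 0.826, with 1.98% called).

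No step between neighbouring times from 10 min on passed for any of the 4 tested members (0.252% of all probe sets were called between 30 and 10 min of ischemia, 2.74% between 120 and 60 min of ischemia, and 0 in the other 4 steps, in which between 476 and 2065 had an unadjusted p under 0.05). For Egr1 the steps with the largest estimates were 0.76 between 30 and 10 min of ischemia (adjusted p = 0.0646), 0.64 between 60 and 30 min of ischemia+reperfusion (0.363) and 0.87 between 120 and 60 min of ischemia+reperfusion (0.158). All 3 passed with arrays as samples, with adjusted p = 0.00449, 0.0354 and 0.00145. That fit allows for a correlation between duplicates, estimated at 0.078, and so counts duplicates almost as separate samples. The step between 30 and 10 min of ischemia also passed with array medians centred (adjusted p = 0.0433), with an intensity trend (0.049), without the exchanged array (0.0461), and without replicate 1 or 4 of 30 min ischemia (0.048 and 0.0312) or replicate 1 or 3 of 10 min ischemia (0.0448 and 0.0403). A moderated F test over all times called Egr1 in both arms, with an adjusted p of 0.00861 in ischemia+reperfusion, where 3.61% of probe sets were called, and of 0.0100 in ischemia, where 4.57% were. Egr2, Egr3 and Egr4 passed in neither arm.

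Set against ischemia at equal time, Egr1 was lower in ischemia+reperfusion by 1.54 ± 0.14 log2 units at 30 min (difference -1.54, adjusted p = 0.00237), with -1.78 in preparation 1 and -1.30 in preparation 2. It ranked 8 from the lowest of the 18625 probe sets, and 0.22% were called lower. At 60 min the difference was -1.08 ± 0.14 (adjusted p = 0.0071, -1.21 and -0.95 in the preparations), when 2.24% of all probe sets were called lower. In both comparisons the 4 arrays of each arm did not overlap. Such separation, here and below, describes the arrays and is no test, and its share over all probe sets is not given. At 10 min the arrays did not overlap either, 1008 to 1645 in ischemia+reperfusion against 2042 to 2556 in ischemia, but the difference of -0.73 did not pass (adjusted p = 0.192). In that comparison 0% of all probe sets were called by limma on the averages, 1860 had an unadjusted p under 0.05, and with arrays as samples 72 were called, Egr1 among them (adjusted p = 0.0118). The arms already stood apart at 0 min by -0.39 (adjusted p = 0.196, with 0.333% called), although their arrays overlapped there. At 120 min the difference was 0.09, with a 95% interval of -0.23 to 0.40 (adjusted p = 0.976, with 0% called), and without the 2 arrays out of place it was 0.11 (adjusted p = 0.699, with 3.59% called).

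Whether the change since 0 min itself differed between the arms was tested by the interaction. The change of Egr1 in ischemia+reperfusion minus that in ischemia was -1.15 ± 0.20 at 30 min (-1.46 and -0.84 in the preparations), -0.69 at 60 min and 0.48 at 120 min. None passed, with adjusted p = 0.389, 0.306 and 0.447. By limma 0% of all probe sets were called in each of these tests, and between 1072 and 1989 had an unadjusted p under 0.05. The F test over the times gave Egr1 an adjusted p of 0.0694 (0.00537% of all probe sets called). The lower level at 30 min is thus shown as a difference between groups, while a difference in the response from 0 min did not pass in this fit. With arrays as samples the interaction at 30 min had an adjusted p of 0.00505.

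**Figure D2:**
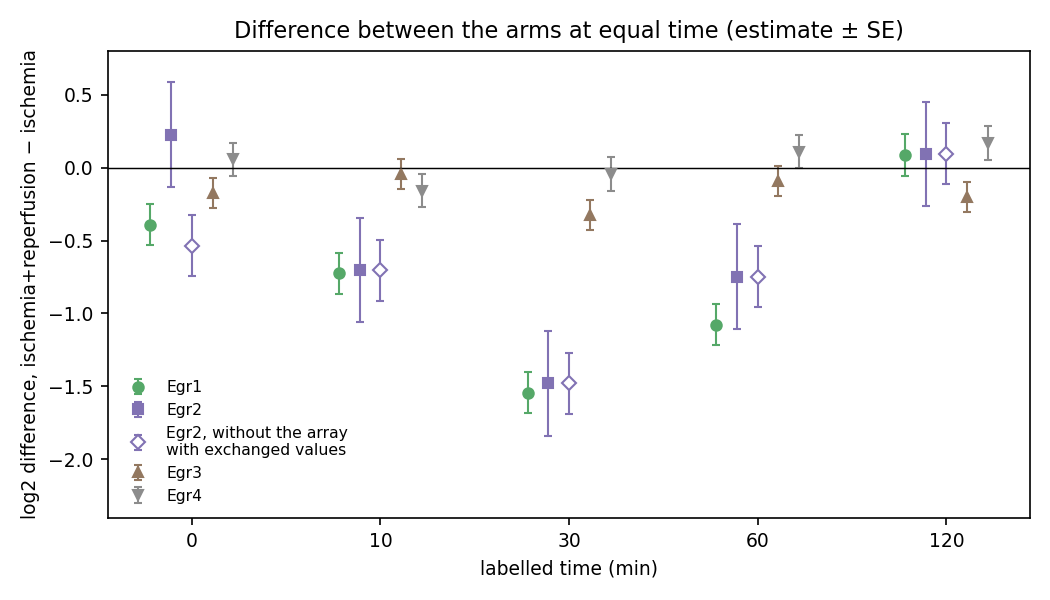
Log2 difference between ischemia+reperfusion and ischemia (vertical axis, estimate ± SE, 0 marks equal levels) by labelled time in min (horizontal axis) for the tested probe set of each member, with Egr2 also without the array with exchanged values (open symbols). Egr1 and Egr2 lie lowest at 30 min, at -1.54 and -1.48, and near 0 at 120 min.

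Egr2, also called Krox20 and known for its role in hindbrain patterning and Schwann cell myelination, had its lowest difference between the arms at 30 min. On 1387306_a_at its normalised intensity in ischemia+reperfusion was 387, 335, 268 and 230 at 0 min, 261, 264, 273 and 138 at 10 min, and 217, 186, 124 and 187 at 30 min. It was 259, 277, 221 and 257 at 60 min and 372, 373, 250 and 298 at 120 min. Every array at 30 min in this arm lay below every array of 0 min and of 60 min. In ischemia it had 49.8, 528, 408 and 332 at 0 min, 529, 509, 278 and 271 at 10 min, and 724, 717, 409 and 334 at 30 min. It had 481, 516, 339 and 425 at 60 min and 287, 266, 267 and 385 at 120 min. The value of 49.8 is that of the array with exchanged values. At 10, 30 and 60 min of ischemia both arrays of preparation 1 stood above both of preparation 2.

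The second Egr2 probe set, 1398266_a_at, read 516 on the array with exchanged values and between 0 and 96.6 on all others, with 3 arrays at 0. Its mean was under the limit for testing. In ischemia+reperfusion it ran from 0 to 69.2 and in ischemia, that array aside, from 0 to 96.6, so the arms overlapped throughout.

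**Figure D3:**
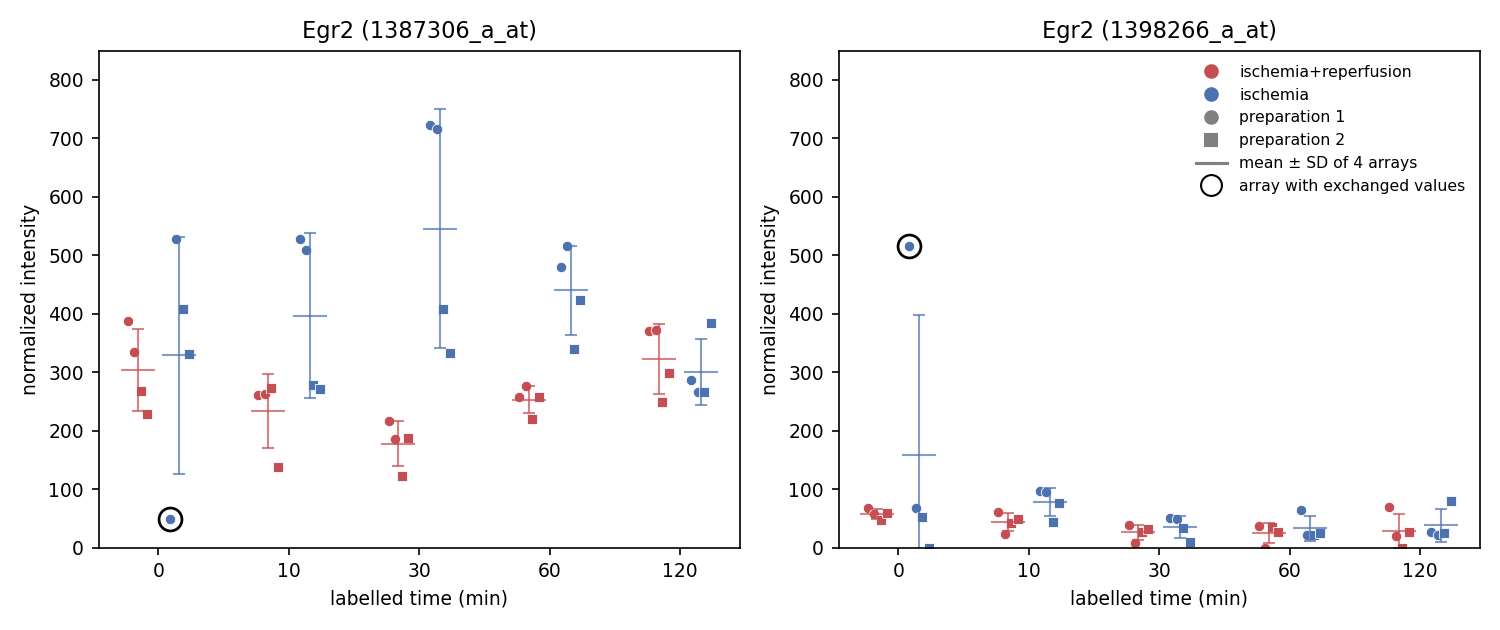
Normalised intensity (vertical axes, from 0) of both Egr2 probe sets on every array by labelled time in min (horizontal axes), ischemia+reperfusion left of ischemia, with marker shape for the preparation and bars for the mean ± SD of 4 arrays. The ringed array of 0 min ischemia has 49.8 on the left and 516 on the right, the reverse of its group.

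At 30 min Egr2 was lower in ischemia+reperfusion than in ischemia by an estimate of -1.48 ± 0.36, with -1.76 in preparation 1 and -1.19 in preparation 2, and the arrays did not overlap. With all arrays the adjusted p was 0.0875. The exchanged array is not in either group but enters the estimate of the spread, and without it the same difference had an SE of 0.21 and an adjusted p of 0.0137, when 0.44% of all probe sets were called lower. With all arrays it ranked 10 from the lowest. At 60 min the arms again did not overlap, 221 to 277 in ischemia+reperfusion against 339 to 516 in ischemia, and the difference of -0.75 had an adjusted p of 0.229 with all arrays and of 0.0555 without the exchanged one. At 10 min it was -0.70 (adjusted p = 0.556, and 0.285 without that array). At 120 min it was 0.09, with a 95% interval of -0.69 to 0.88.

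Against 0 min of its own arm, Egr2 passed at no time in either arm with all arrays. In ischemia+reperfusion the estimates were -0.38, -0.72, -0.23 and 0.09 at 10, 30, 60 and 120 min, and the smallest adjusted p, at 30 min, was 0.384 with all arrays and 0.132 without the exchanged one. In ischemia the sign at 120 min turned on that array. With it the estimate was 0.22 (adjusted p = 0.708), without it -0.54 (adjusted p = 0.105), and without it and the 2 arrays out of place -0.67 (adjusted p = 0.0292). At 30 min of ischemia it was 0.98 with the exchanged array and 0.22 (adjusted p = 0.686) without it, so no rise of Egr2 in ischemia was shown. Without the exchanged array the arms stood apart at 0 min by -0.54 (adjusted p = 0.224), and the interaction at 30 min was -0.94 (adjusted p = 0.686).

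Egr3 and Egr4, members studied mainly in neurons, lymphocytes and muscle spindles, had signals near the limit for testing. Their mean log2 values were 6.77 and 6.64, against a limit of 6.48, and no detection call was used here. On 1369545_at, Egr3 ran from 70.2 to 118 in ischemia+reperfusion and from 76.2 to 132 in ischemia. The least overlap between the arms was again at 30 min, with 90.4, 92.0, 82.3 and 95.0 in ischemia+reperfusion against 113, 115, 125 and 114 in ischemia. The arrays did not overlap, but the difference of -0.33 ± 0.10 did not pass (adjusted p = 0.16, -0.28 and -0.37 in the preparations). Among the changes against 0 min the largest in size were -0.31 at 120 min of ischemia+reperfusion (adjusted p = 0.0976) and, in ischemia, -0.35 at 10 min (0.0945) and -0.28 at 120 min (0.0929). Without the exchanged array the 10 min value was -0.21 (adjusted p = 0.388), and it was called with arrays as samples (-0.35, 0.0436), without replicate 2 of 0 min ischemia (-0.49, 0.0361) and without replicate 3 of 10 min ischemia (-0.42, 0.0458). The 120 min value had an adjusted p of 0.0437 without the 2 arrays out of place, and of 0.339 when the array with exchanged values was left out as well.

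On 1375784_at, Egr4 ran from 65.0 to 102 in ischemia+reperfusion and from 63.6 to 116 in ischemia. No comparison of Egr4 passed, and its differences between the arms ran from -0.16 at 10 min to 0.17 at 120 min, each with an SE of 0.11. At 30 min the difference was -0.04, with a 95% interval of -0.29 to 0.21, on a scale that understates changes of signals as dim as this one. The other Egr4 probe set, 1387442_at, was deposited with negative values on all 40 arrays, from -51.4 to -8.55, and holds no order.

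**Figure D4:**
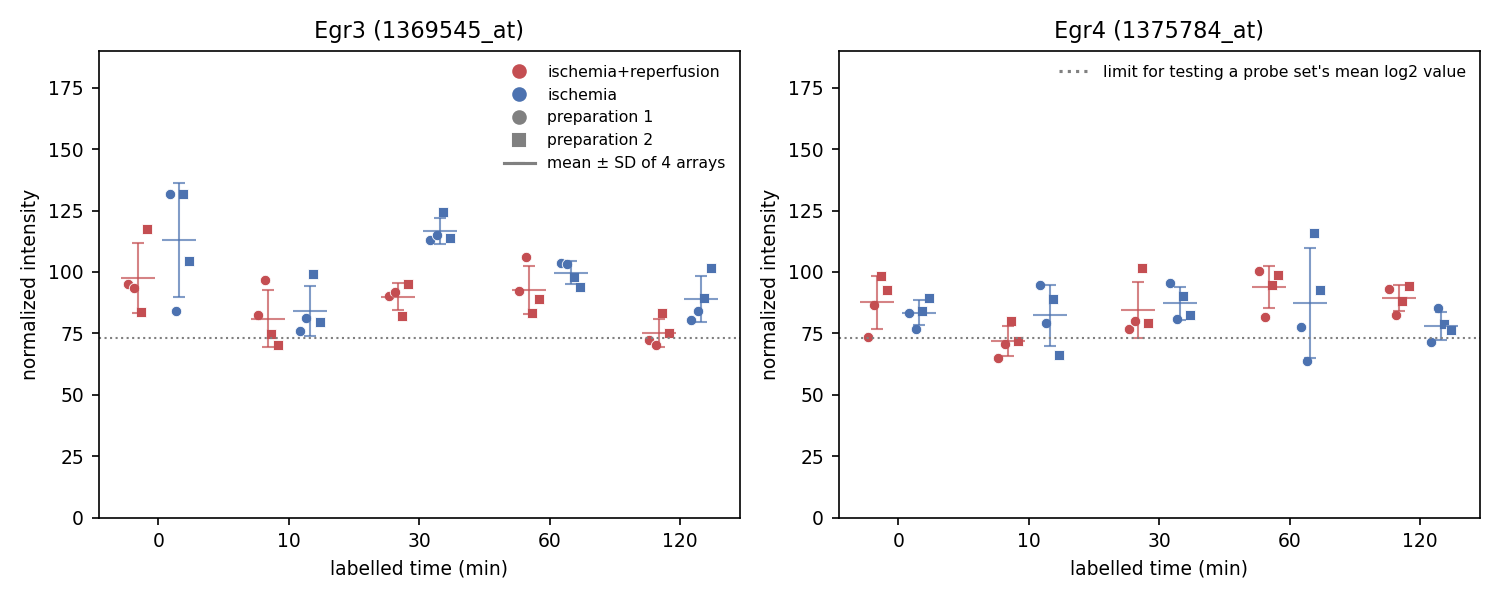
Normalised intensity (vertical axes, from 0) of Egr3 and of the tested Egr4 probe set on every array by labelled time in min (horizontal axes), ischemia+reperfusion left of ischemia, with marker shape for the preparation, bars for the mean ± SD of 4 arrays and a dotted line at 73.2, the intensity that the limit for testing stands for. Arrays of both genes lie close to the line, and the arms do not overlap for Egr3 at 30 min.

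Across the 20 preparation averages, each centred on its preparation, Egr1 and Egr2 correlated with r = 0.70, also without the exchanged array. The other pairs of tested members had r between 0.05 and 0.32 with all arrays. All averages come from the same arrays and preparations, so these values describe how alike the courses were. Of 14307 other named probe sets, those most like Egr1 were Ccn1, a matricellular early gene, with r = 0.90, the cytokine Il6 with 0.90, the chemokine Cxcl1 with 0.89, Myh1 with 0.89 and Stx5 with 0.88. Without the exchanged array the first 4 were the same and Fos took the next place with 0.87. For Egr2 the list changed with that array, from Dusp6, Hyou1, Papola, Ssbp1 and Nav1 (r = 0.88 to 0.75) with it to Plk2, Dusp6, Nxf1, Cog7 and Jun (r = 0.87 to 0.85) without it. Dusp6 encodes a phosphatase that inactivates ERK. The probe sets most like Egr3 were Rab3il1, Sf3b5, Imp3, Hcrt and Efr3a (r = 0.84 to 0.81), and those most like Egr4 were Suco, Slirp, Zbed3, Zfx and Sytl2 (r = 0.73 to 0.66).

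Of the corepressors, Nab2 was higher in ischemia+reperfusion than in ischemia at 30 and 60 min, and Nab1 was called in no comparison. Nab2 (1374925_at) had 1781, 1710, 1615 and 1602 in ischemia+reperfusion at 30 min, against 1039, 805, 898 and 902 in ischemia. The groups did not overlap, and Nab2 was higher in ischemia+reperfusion by 0.87 ± 0.16 (adjusted p = 0.0479, when 0.311% of all probe sets were called higher), where Egr1 was lower. This call was lost with a pseudocount of 4 (adjusted p = 0.051), with no filter (0.0647) and without the preparation block (0.0876). At 60 min Nab2 was higher in ischemia+reperfusion by 0.95 ± 0.16 (adjusted p = 0.0157, with 3.14% called higher), and at 120 min the difference was 0.05 (adjusted p = 0.997). The Nab2 arrays of the arms were already apart at 0 min, 974 to 1195 in ischemia+reperfusion against 780 to 920 in ischemia. Without the exchanged array that difference was 0.37 (adjusted p = 0.305, with 0.859% called). In the same fit the interaction was 0.50 at 30 min (adjusted p = 0.828) and 0.58 at 60 min (0.405), with 0% called in each. Against 0 min, Nab2 rose by 0.75 at 60 min of ischemia+reperfusion (adjusted p = 0.0309) and by 0.86 at 120 min of ischemia (adjusted p = 0.0111), and the difference at 120 min of ischemia+reperfusion was 0.59 (adjusted p = 0.0535, and 0.0241 without the 2 arrays out of place). Nab1, the other corepressor of the family, passed in no comparison with 0 min or between the arms on either tested probe set.

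Among the factors that carry signals to Egr promoters, 9 of 17 listed names were on the array and tested. Srf, Elk1, Elk4, Mrtfa and Map2k2 passed in no comparison with 0 min or between the arms, so the level of serum response factor RNA showed no change that passed. Map2k1, which encodes the ERK kinase MEK1, rose by 0.49 at 120 min of ischemia+reperfusion (adjusted p = 0.022) and by 0.42 at 120 min of ischemia (0.0238). The ischemia value was 0.34 without the exchanged array and did not pass (adjusted p = 0.0848). Map2k1 also rose by 0.48 at 60 min of ischemia+reperfusion (adjusted p = 0.0272) and by 0.51 at 10 min of ischemia (0.0355), which without the exchanged array was 0.44 (0.0936). Elk3, a ternary complex factor, rose by 0.26 and Creb1 fell by 0.33 at 120 min of ischemia (adjusted p = 0.0337 and 0.0219). Rps6ka3, encoding the ERK-activated kinase RSK2, rose by 0.40 at 60 min of ischemia+reperfusion (adjusted p = 0.0341) and was higher in ischemia+reperfusion than in ischemia at 60 min by 0.62 (adjusted p = 0.00931). None of the 9 passed between the arms at 30 min, when 0.532% of all probe sets were called. At 120 min of ischemia 6.45% of all probe sets were called higher and 6.48% lower. The share called higher was 1.14% at 10 min of ischemia, and 2.19% and 3.5% at 60 and 120 min of ischemia+reperfusion. Between the arms at 60 min 3.14% were called higher. Of the other GC-box factors, Sp1 rose by 0.34 at 120 min of ischemia+reperfusion (adjusted p = 0.0132) and by 0.20 at 120 min of ischemia (0.0478), and Wt1, a zinc finger factor with a related site, rose by 0.59 at 120 min of ischemia (0.0217). The Sp1 call in ischemia is not kept on the deposited scale, where the value is -0.024 (adjusted p = 0.9). On that scale, which is without normalization, the median of all probe sets was itself -0.22 in this comparison.

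Of 23 genes listed as targets of Egr1 in the literature of other cell types, 17 were tested. This list was chosen with earlier results of these data known, so its counts and medians describe the list and are no test of Egr1 action. In ischemia+reperfusion 0, 1, 5 and 7 rose at 10, 30, 60 and 120 min and none fell, with medians of 0.04, 0.12, 0.41 and 0.40 over the list against medians of -0.02 to -0.01 over all probe sets. Of all probe sets 0.0215%, 0.408%, 2.19% and 3.5% were called higher in these comparisons. In ischemia 0, 0, 1 and 7 rose and none fell, with medians of -0.07, -0.05, 0.03 and 0.37, when 1.14%, 0.0698%, 0.0859% and 6.45% of all probe sets were called higher. Without the exchanged array 6 rose at 120 min of ischemia, with the call of Ptges lost (0.71, adjusted p = 0.0844). Without the 2 arrays out of place 8 rose at 120 min of ischemia+reperfusion and 7 at 120 min of ischemia. The largest rises at 120 min were those of the chemokine Cxcl2, 2.45 in ischemia+reperfusion and 2.93 in ischemia, the cytokine Il1b, 2.00 in ischemia+reperfusion and 2.17 in ischemia, and the inducible cyclooxygenase Ptgs2, 1.48 in ischemia+reperfusion and 1.03 in ischemia. Ptges, which makes prostaglandin E2, rose by 1.29 at 120 min of ischemia+reperfusion (adjusted p = 0.0136). Between the arms none of the 17 passed at 30 min, where Egr1 differed most and 0.532% of all probe sets were called, and the list's median was 0.12. At 60 min, when 5.38% of all probe sets were called, 1 of the 17 passed. This was the cell cycle inhibitor Cdkn1a, higher in ischemia+reperfusion by 0.88 (adjusted p = 0.0118). At 120 min none passed with all arrays, when 0% of all probe sets were called. Without the 2 arrays out of place by Hspa1a 3.59% of all probe sets were called. In that fit Cdkn1a was higher in ischemia+reperfusion by 0.54 (adjusted p = 0.0302) and Cxcl2 was lower (-1.25, adjusted p = 0.0358).

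Other immediate early genes, induced by the same kinds of signal, were followed for comparison. Their list, too, was chosen with earlier results of these data known, so its counts and medians are no test. Of 17 tested, 0, 0, 6 and 9 rose in ischemia+reperfusion and 0, 1, 3 and 9 in ischemia at 10, 30, 60 and 120 min, and none fell, beside the same shares of all probe sets as above (3.5% in ischemia+reperfusion and 6.45% in ischemia at 120 min). The list's medians at 120 min were 0.63 in ischemia+reperfusion and 0.90 in ischemia. Without the 2 arrays out of place 11 rose in ischemia+reperfusion and 7 in ischemia at 120 min, and the order of the medians turned round, with 0.72 in ischemia+reperfusion and 0.60 in ischemia. Without the exchanged array 10 rose at 120 min of ischemia+reperfusion (median 0.63) and 8 at 120 min of ischemia (median 0.72), and 4 rose at 60 min of ischemia. Fos (1375043_at), the AP-1 subunit, was the gene of the list that rose in ischemia at 30 min, by 2.28 ± 0.20 (adjusted p = 0.00181). A second Fos probe set, 1371283_at, lay below the limit for testing. It read 9.23, 13.4, 17.9 and 0 at 0 min of ischemia, 20.8, 34.4, 34.3 and 98.3 at 30 min, and 0 on every array at 120 min. On 1375043_at Fos had 528, 482, 403 and 468 in ischemia+reperfusion at 30 min, against 1660, 1680, 2086 and 1727 in ischemia. The groups did not overlap, and the difference was -1.89 ± 0.20 (adjusted p = 0.00412), of the same sign as that of Egr1. At 60 min it was -1.24 (adjusted p = 0.0128), and Ccn1 was lower in ischemia+reperfusion by an estimate of -0.93 (adjusted p = 0.0242). Fos and Ccn1 were the genes of this list that passed between the arms at 60 min, and Fos the one at 30 min, joined by Ccn1 without the exchanged array. Of all probe sets 5.38% were called between the arms at 60 min and 0.532% at 30 min (1.05% without that array).

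**Figure D5:**
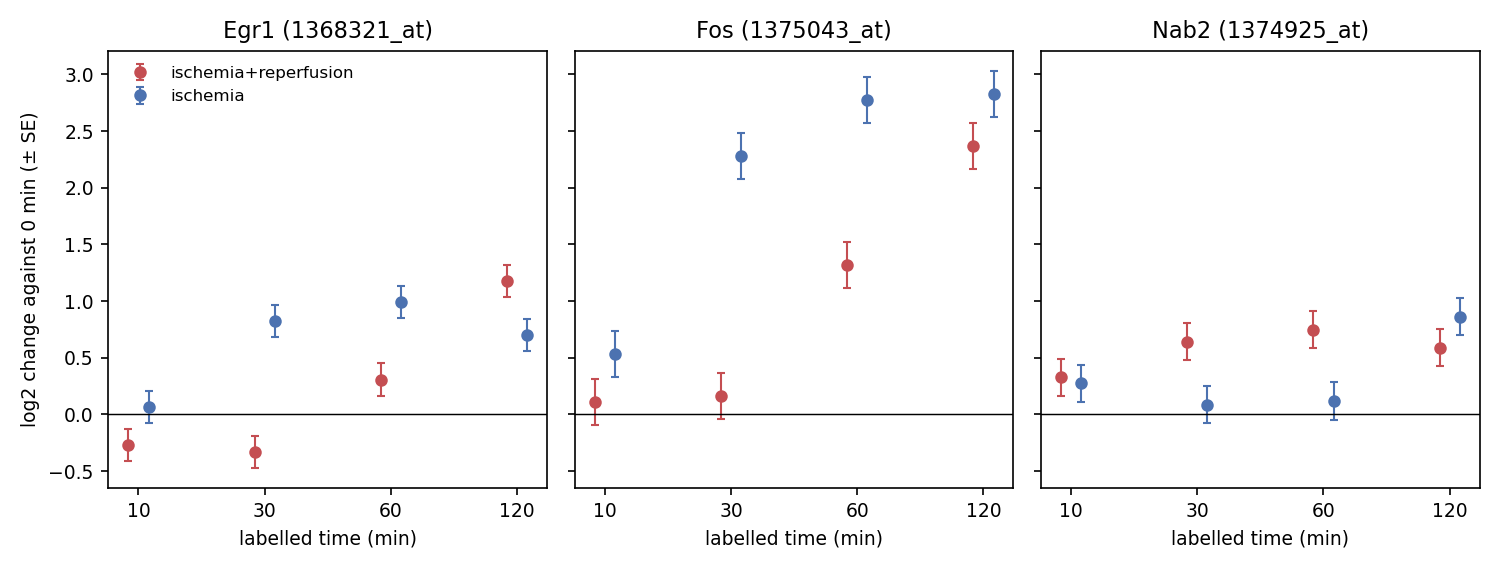
Log2 change against 0 min of the same arm (vertical axes, estimate ± SE, 0 marks no change) by labelled time in min (horizontal axes) for Egr1, Fos and Nab2, ischemia+reperfusion left of ischemia. At 30 min Egr1 is at -0.33 in ischemia+reperfusion against 0.82 in ischemia, Fos at 0.16 against 2.28, and Nab2 at 0.64 against 0.08.

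The levels of markers of other cell types are given beside the 30 min difference. The summed intensity of the 8 fibroblast markers ran from 36221 to 41600 in ischemia+reperfusion and from 32907 to 41000 in ischemia at 30 min. That of the 7 heart muscle markers ran from 55978 to 61078 in ischemia+reperfusion and from 59987 to 64059 in ischemia. That of the 7 macrophage markers ran from 2815 to 3768 in ischemia+reperfusion and from 2134 to 3420 in ischemia. All 3 ranges overlapped between the arms at 30 min. At 60 min the heart muscle sums did not overlap, 57269 to 60073 in ischemia+reperfusion against 62032 to 64134 in ischemia, beside the lower Egr1 and the lower Egr2 estimate there. The fibroblast sums at 60 min ran from 36644 to 41325 in ischemia+reperfusion and from 33673 to 38274 in ischemia, and the macrophage sums from 2485 to 3602 in ischemia+reperfusion and from 2411 to 3212 in ischemia. The part of these cells in the Egr levels was not tested.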

How the data were processed

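Deposited probe set values were intensities on a linear scale (-1725 to 17404, with 15.8% negative), and the medians of the arrays ran from 101 to 171. How the authors summarised and scaled them is not given in the sources here. Spin columns were used for the RNA and an Eberwine-type protocol for the biotin-labelled cRNA, per the labels. The arrays were quantile-normalized, negative values were set to 0, and log2(value + 16) was taken, a scale that understates changes of dim signals. A probe set was tested if its mean on this scale exceeded 6.48, the 40th percentile, which stands for an intensity of 73.2. Duplicates were averaged, and the 20 averages were fitted with limma 3.58.1 (R 4.3.3) on group and preparation, with moderated two-sided tests and Benjamini-Hochberg adjustment over 18625 probe sets at 0.05. A probe set was named where the platform annotation gives 1 symbol (20826 of 31042, with 436 carrying several and 9780 unnamed), and the brightest stood for a listed gene. Each group entered this fit with an average from each of the 2 preparations, and this small number limits the precision. The fit was tested on simulated data.

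The labels give preparation numbers shared by all groups. Taken over all tested probe sets, the preparation difference of 1 group correlated with that of another with a median r of 0.18 and a range of -0.18 to 0.53, and r exceeded 0.1 for 34 of the 45 group pairs.

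The members and lists were chosen with earlier results of these data known. All member probe sets were named, with the 5 probe sets most like each tested one, any called gene of the corepressor, upstream and GC-box lists, and among called targets and early genes those with the largest changes at 120 min. Fos, Ccn1 and Cdkn1a were also named at other times, after their values were seen. Alternatives changed the scale, pseudocount, filter, block, duplicates or variance trend, or left out arrays; those without the array with exchanged values and without the 120 min arrays together were chosen after seeing the data.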

Additional observations from a re-analysis of the deposited data

Results flagged for a closer look

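Among 50 sets of 4 arrays (the Egr probe sets in each group, without the Egr4 probe set at 0 on all arrays), 5 had an array far from the others of its group, and chance alone gives about 1 in 20. For Egr4 (1375784_at), replicate 3 of ischemia+reperfusion at 30 min had a normalised intensity of 101.6, with its other arrays at 76.8 to 80.2. For Egr2 (1387306_a_at), replicate 4 of ischemia+reperfusion at 10 min had 138.1, with the others at 261.3 to 272.6. The remaining sets belong to the Egr2 probe set under the limit for testing, 1398266_a_at. Replicate 2 of ischemia+reperfusion at 60 min was at 0 (a negative value of -2.13 set to 0), with the others at 27.9 to 37.0. Replicate 1 of ischemia at 60 min had 63.8, with the others at 21.1 to 25.3, and replicate 4 of ischemia at 120 min had 79.8, with the others at 21.8 to 27.0. The last is also 1 of the 120 min arrays out of place by Hspa1a.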

How the results depend on the processing

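Over the comparisons of Egr1 and the tested Egr2 probe set with 0 min and between the arms, 467 recomputed values kept their side of the threshold, 456 of them with the same direction and 11, called in neither setting, with the sign turned (among them Egr2 at 10, 60 and 120 min of ischemia and between the arms at 0 min without the exchanged array, and Egr1 between the arms at 120 min with array medians centred, -0.05). Of the rest, 2 lost and 8 gained a call, and 1 reversed. Egr1 in ischemia at 60 min lost its call on the deposited scale (0.91, beside a median of -0.17 over all probe sets) and with no replicate block (0.99, adjusted p = 0.0783). At 30 min of ischemia it gained one with array medians centred (0.84), arrays as samples (0.82), an intensity trend (0.82), and without replicate 1 or 4 of that group (leaving out single arrays gave 0.71 to 0.93). Arrays as samples also gave calls between the arms to Egr1 at 10 min (-0.73) and Egr2 at 30 min (-1.48), and leaving out the exchanged array gave Egr2 that call (-1.48, with -1.61 to -1.34 over single arrays left out). Egr2 at 120 min of ischemia reversed to -0.67 without that array and the 120 min arrays out of place. No other call of these comparisons changed without the block. Egr3 gained a call at 120 min of ischemia on the deposited scale (-0.47), and Sp1 turned its sign there without a call (-0.024). The median of all probe sets was itself -0.22 in that comparison on the deposited scale. Among 78 counts of all calls that moved by over 1.5 times, those at 30 min of ischemia against 0 min ran from 2 to 285 (18 in the main setting) and those between the arms at 30 min from 52 to 679 (99), highest with arrays as samples. Between the arms at 120 min 668 were called without the arrays out of place, against 0. Without normalization the median of all probe sets moved by -0.23 to 0.21, and the calls between the arms at 60 min split into 2095 higher and 81 lower, against 584 and 418. Egr3 and Egr4 lay near the limit on signal, so the depth of the signal over background limits their values. The cause of these shifts was not tested.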
